A study of Mus musculus with 22 samples.

Results

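The small Maf and CNC transcription factors and their regulator KEAP1 were followed through the open chromatin around 7 genes: Maff, Mafg, Mafk, Nfe2l1, Nfe2l2, Bach1 and Keap1. A peak belonged to one of these genes when the authors' annotation named that gene as its nearest and placed the peak at most 50 kb from the transcription start. This rule gave 65 of 68827 peaks: 5 at Maff, 9 at Mafg, 6 at Mafk, 5 at Nfe2l1, 16 at Nfe2l2, 13 at Bach1 and 11 at Keap1. Another 3 peaks named for these genes lay farther away and were left out. The counts of a gene's peaks were also added up to a gene sum, and 15686 genes of the series had such a sum. All 7 genes and all 65 peaks passed the filter on low counts.

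The data are ATAC-seq counts, for which a transposase cuts and tags accessible DNA, from liver nuclei of 22 male HEP-INTACT mice. HEP-INTACT mice carry a tag on hepatocyte nuclei, so that these nuclei can be captured from whole liver. For the promoter that drives the tag, the strain and the age of the mice no label was at hand. In the FPC arm mice ate the FPC diet for 20 weeks and were placed by liver histology in a mild group (4 libraries) or an advanced group (3 libraries). In the CDAHFD arm mice ate the CDAHFD for 7 weeks and were divided the same way into mild (4 libraries) and advanced (3 libraries). Each arm had 4 control libraries from mice on a low fat diet for 20 or 7 weeks. Mild and advanced livers were both fatty and inflamed, and marked fibrosis was a feature of the advanced group. Because histology defined the groups, a stage is a class of liver and not a time point.

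Total counts per library, in units of 1000000, lay between 3.79 and 9.33. FPC controls averaged 4.5 and advanced FPC libraries 6.47, with ranges (3.79 to 6.04 and 5.97 to 7.14) that overlapped slightly, and the CDAHFD groups overlapped too (5.95 to 9.33). All 8 hepatocyte markers listed (among them Alb, Ttr and Apob) had peaks, and their summed level was 1421 to 2168 CPM (counts per 1000000 counts) over the libraries. Of 10 cholangiocyte (bile duct cell) markers 9 had peaks, and in 8 or 9 of these accessibility rose in advanced livers. Of the other listed markers, 2 of 11 for stellate cells, 4 of 11 for macrophages, 7 of 10 for endothelium and 4 of 10 for lymphocytes had peaks. Defining genes such as Lrat and Des (stellate cells), Clec4f and Cd68 (macrophages), and Cd3e (lymphocytes) had none. In captured nuclei of a whole liver, fewer nuclei of a type and less open chromatin per nucleus cannot be told apart.

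Small Maf proteins (MAFF, MAFG and MAFK) are basic leucine zipper factors that bind DNA but lack an activation domain. Pairs of small Mafs repress, whereas a small Maf paired with a CNC factor reads the antioxidant response element: NRF1 (gene Nfe2l1) and NRF2 (gene Nfe2l2) activate there, and BACH1 represses until heme removes it. KEAP1 is the sensor that hands NRF2 to a cullin ubiquitin ligase until oxidants or electrophiles disable it. In liver, NRF2 is known for detoxification and antioxidant genes, and NRF1 for proteasome genes and for protecting hepatocytes from lipid and cholesterol overload.

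The sequences shown here are the start sites on which the results turn: the Maff start under the Maff peaks that rose most, the Mafk start, whose own peak rose little, and the Nfe2l2 start, whose peak did not pass the test in any comparison. They are the 250 bases before each start, 5′ to 3′ on the gene's strand, from RefSeq (GRCm38.p6, the same assembly as the mm10 build of the files). Capitals mark matches on either strand to the antioxidant response element, TGACNNNGC. The Maff bases lie at chr15:79347270-79347519 (plus strand), those of Mafk at chr5:139791286-139791535 (plus strand) and those of Nfe2l2 at chr2:75704664-75704913 (minus strand).
Maff: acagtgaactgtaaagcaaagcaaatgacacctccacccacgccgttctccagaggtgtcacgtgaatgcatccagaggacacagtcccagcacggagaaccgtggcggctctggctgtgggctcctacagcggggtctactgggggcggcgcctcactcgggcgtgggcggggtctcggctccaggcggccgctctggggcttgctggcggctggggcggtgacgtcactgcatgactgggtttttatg
Mafk: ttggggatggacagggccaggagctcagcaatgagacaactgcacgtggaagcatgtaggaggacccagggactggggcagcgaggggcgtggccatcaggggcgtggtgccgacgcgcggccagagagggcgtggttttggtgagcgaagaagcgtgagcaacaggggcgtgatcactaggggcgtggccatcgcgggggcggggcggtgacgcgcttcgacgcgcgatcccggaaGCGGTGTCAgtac
Nfe2l2: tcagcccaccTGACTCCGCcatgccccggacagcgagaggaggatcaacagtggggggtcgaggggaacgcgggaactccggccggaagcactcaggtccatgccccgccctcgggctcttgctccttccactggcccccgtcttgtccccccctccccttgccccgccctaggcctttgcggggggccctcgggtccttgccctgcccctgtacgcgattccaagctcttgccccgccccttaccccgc

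All 7 genes matched the RefSeq table, with 13 start windows of 300 bases between them (250 before the start and 50 after). On both strands, 4 motifs were searched: TGANTCA, the core shared by AP-1 and Maf sites, TGACNNNGC, GGAATG for TEAD factors and CAAAGTCCA for HNF4. The first 2 can overlap each other. Of 32817 windows in the table, 7.81% held TGANTCA, 12.4% TGACNNNGC, 14.7% GGAATG and 0.475% CAAAGTCCA. Among the members' windows only TGACNNNGC was found, once each at Mafg (GCACGGTCA), Mafk (GCGGTGTCA), Nfe2l2 (TGACTCCGC) and another start of Maff (TGACTCTGC) that no peak overlapped. The Nfe2l2 match, 240 bases before the start, lies outside the start peak of that gene (chr2:75704543-75704743). A match is a string in the window and not a measured binding site.

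Maff and Mafk opened in both diets, Nfe2l1 opened less, Nfe2l2 and Bach1 closed slightly, Mafg moved both ways and Keap1 did not pass. In edgeR at an adjusted p under 0.05, 3 of the 7 gene sums rose and 3 fell in advanced against control FPC livers. Over all genes 32.4% rose and 29% fell there, so the members' count is set against a background in which most genes moved. In advanced CDAHFD livers 3 rose and 2 fell (over all genes 30.2% and 28%). In mild livers 3 rose and 2 fell on FPC (21.3% and 18.9% of all genes) and 3 rose and 1 fell on CDAHFD (23.9% and 21% of all genes). Against mild livers, 2 rose and 2 fell in advanced FPC (15.6% and 15.9% of all genes) and 1 rose and 1 fell in advanced CDAHFD (9.63% and 7.76%). These counts were near the background, and the members differed mainly in size, with Maff and Mafk largest in both advanced groups. The median log2 change over the 7 members was −0.03 in advanced FPC and 0.10 in advanced CDAHFD, beside 0.03 and 0.01 over all genes.

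**Figure D1:**
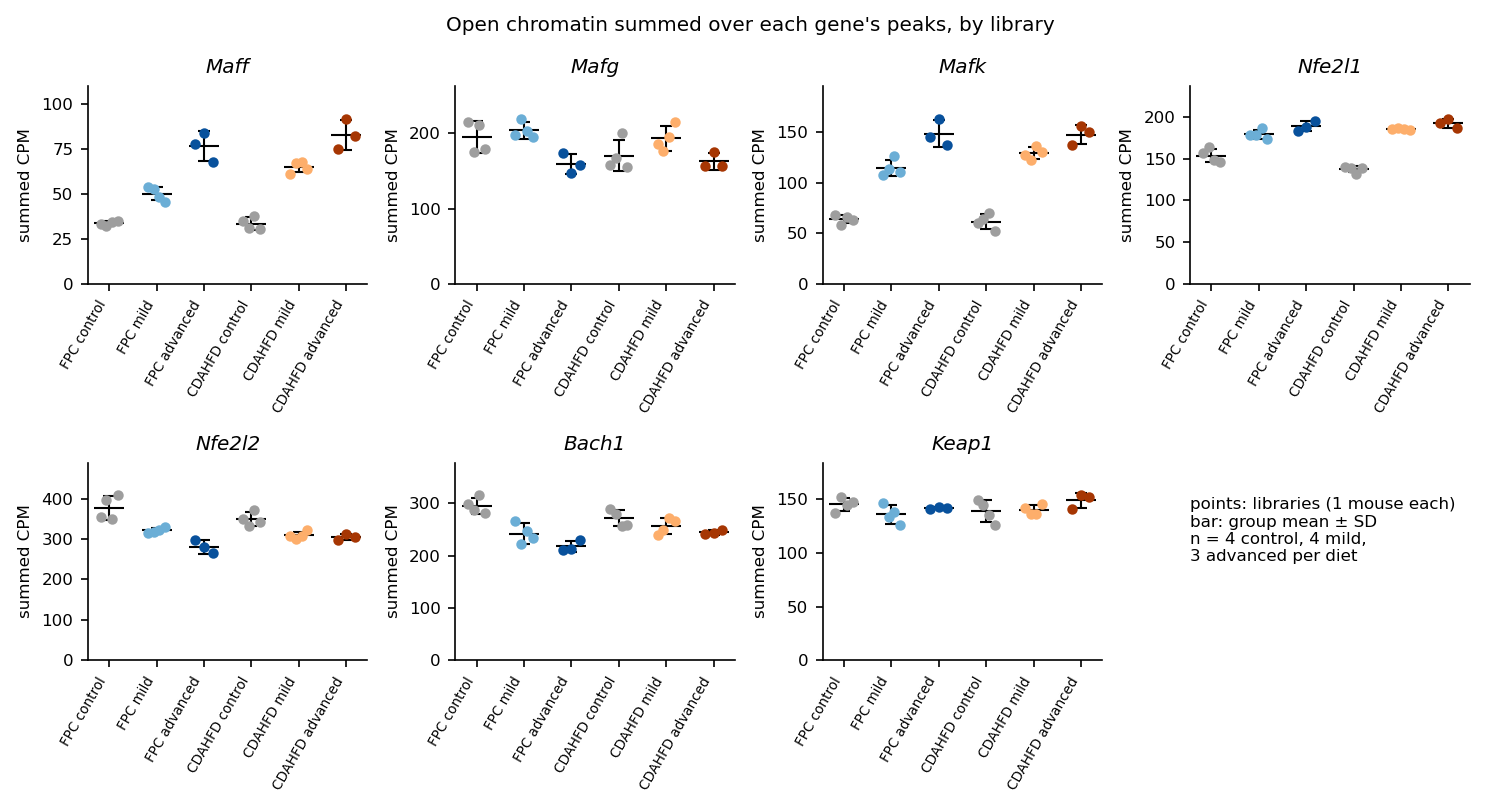
Summed CPM of each gene's peaks (vertical axis, from 0) by group (horizontal axis), with 1 point per library and the group mean ± SD. Maff and Mafk are higher in every mild and advanced library than in every control library of their diet, whereas the Keap1 groups overlap.

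Maff encodes an inducible small Maf. Its gene sum in FPC controls was 33.0, 32.0, 34.3 and 34.7 CPM, in mild FPC livers 53.6, 52.5, 48.3 and 45.6 CPM, and in advanced FPC livers 77.7, 83.8 and 67.4 CPM. The 3 groups did not overlap and stood in the order of disease stage. Advanced livers were 1.19 ± 0.09 higher than controls on the log2 scale (SE, n = 3 against 4, adjusted p 2.2e-10), mild livers 0.57 ± 0.09 (adjusted p 5.5e-05), and advanced livers 0.61 ± 0.09 higher than mild ones (adjusted p 8e-06). In the CDAHFD arm the controls held 34.9, 30.9, 37.7 and 30.1 CPM, mild livers 61.1, 66.9, 67.8 and 63.8 CPM, and advanced livers 74.7, 91.5 and 81.8 CPM. These groups did not overlap either. The rises were 1.29 ± 0.09 in advanced livers (adjusted p 9.1e-12), 0.95 ± 0.08 in mild livers (adjusted p 3e-09) and 0.34 ± 0.08 from mild to advanced (adjusted p 0.0038). The mild change was 48.3% of the advanced change on FPC and 73.3% on CDAHFD, but the difference between diets in the mild change, −0.37 ± 0.13, missed the threshold (adjusted p 0.078). It passed with cyclic loess scaling (adjusted p 0.048) and without CDAHFD control replicate 3 (−0.45).

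All 5 Maff peaks rose in advanced livers of both diets, by 0.68 to 2.04 on FPC and by 0.48 to 2.39 on CDAHFD (log2). Of these, 4 lie within 1 kb of an annotated start, on chromosome 15, and the fifth lies 9404 bp into the gene in exon 3 of 3. The peak with the largest rise, chr15:79347202-79347402, sits 218 bp before the start. It held 3.39, 1.59, 2.69 and 2.02 CPM in FPC controls and 9.61, 12.8 and 7.96 CPM in advanced FPC livers. On CDAHFD it held 3.67, 3.59, 4.16 and 0.340 CPM in controls and 12.3, 20.0 and 16.2 CPM in advanced livers. Every advanced library lay above every control library of its diet. The rises were 2.04 ± 0.36 (adjusted p 3.3e-05) and 2.39 ± 0.30 (adjusted p 2e-07). This peak covers the first 133 bases of the Maff window whose first 250 bases are printed above, and a neighbour 53 bp before the start, which overlaps it, rose by 1.71 ± 0.20 and 1.94 ± 0.18 (named after its values were seen). The peak nearest to a start, at −27 bp of a further start downstream (chr15:79348275-79348475), changed less on CDAHFD: it rose by 1.11 ± 0.15 on FPC (adjusted p 4.4e-07) and by 0.48 ± 0.13 on CDAHFD (adjusted p 0.0039). The difference between the diets at this peak, 0.64 ± 0.20, did not pass (adjusted p 0.1).

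**Figure D2:**
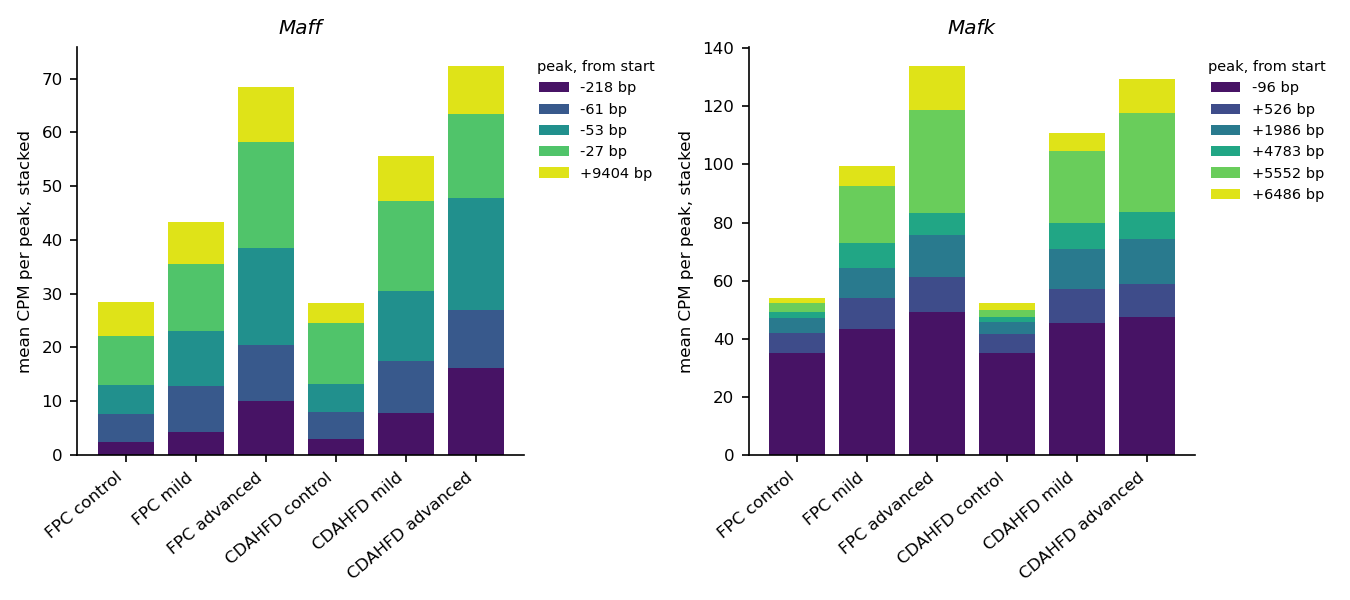
Mean CPM per peak (vertical axis, from 0), stacked over the peaks of Maff (left) and Mafk (right) in each group. At Maff all 5 peaks gain, whereas at Mafk the gain lies mostly in the intron peaks from 1986 to 6486 bp, above a start peak that goes from 35.1 to 49.1 CPM on FPC. Peak CPM is scaled to the total over all peaks, so a stack is lower than the gene sum, which is scaled to the total within gene windows.

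Mafk, a small Maf that serves as partner of NRF2 and BACH1, rose by about as much as Maff in advanced livers. Its gene sum was 68.2, 58.4, 66.2 and 63.4 CPM in FPC controls, 108, 113, 126 and 111 CPM in mild livers and 146, 163 and 138 CPM in advanced livers. In the CDAHFD arm it was 60, 64.2, 70.1 and 52.0 CPM in controls, 128, 122, 137 and 131 CPM in mild livers and 137, 156 and 150.1 CPM in advanced livers. No library of a diseased group reached down to a control library. The change from control was 1.21 ± 0.08 in advanced FPC (adjusted p 2.9e-11) and 0.84 ± 0.08 in mild FPC (adjusted p 8.4e-08). On CDAHFD it was 1.25 ± 0.08 in advanced (adjusted p 4.8e-12) and 1.06 ± 0.08 in mild livers (adjusted p 1.2e-10). The mild change was thus 68.9% and 84.8% of the advanced one. From mild to advanced the rise was 0.38 ± 0.08 on FPC (adjusted p 0.00062), whereas on CDAHFD 0.19 ± 0.08 missed the threshold (adjusted p 0.086), although it passed when only the compared groups were fitted (adjusted p 0.042). Neither diet difference passed: −0.04 ± 0.12 for the advanced change and −0.23 ± 0.11 for the mild change (adjusted p 0.89 and 0.25).

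The rise at Mafk lay mostly inside the gene. All 6 peaks rose in advanced livers of both diets, but the start peak (chr5:139791340-139791540, 96 bp before the start) rose only by 0.48 ± 0.09 on FPC (adjusted p 0.00011) and 0.42 ± 0.09 on CDAHFD (adjusted p 0.00018). The largest change of any member peak was in intron 1 of 2, 5552 bp after the start, at chr5:139796988-139797188. That peak held 1.94, 4.51, 2.35 and 3.54 CPM in FPC controls, 17.3, 22.6, 19.5 and 18.7 CPM in mild livers and 31.7, 40.9 and 33.9 CPM in advanced livers. On CDAHFD it held 2.54, 1.80, 2.38 and 2.89 CPM in controls, 22.1, 24.3, 28.2 and 23.9 CPM in mild livers and 32.6, 36.1 and 34.0 CPM in advanced livers. Every mild library was above every control, and every advanced library above every mild one. Advanced livers were 11.8-fold above controls on FPC (log2 3.56 ± 0.18, adjusted p 8.4e-14) and 14.2-fold on CDAHFD (3.83 ± 0.16, adjusted p 1.3e-15). Mild livers were already 6.49-fold (2.70 ± 0.18, adjusted p 1.5e-10) and 10.2-fold above controls (3.35 ± 0.16, adjusted p 6.3e-14). The other 3 peaks of this intron more than 1 kb from the start rose by 1.43 to 2.93 on FPC and by 1.87 to 2.40 on CDAHFD. As a result the peaks within 1 kb held 77.3% of the Mafk signal in FPC controls but 45.8% in advanced FPC livers, and 79.9% and 45.5% on CDAHFD. Summed over peaks within 1 kb only, and scaled to the total of such peaks, Mafk was 0.07 higher in advanced than in mild FPC livers. This did not pass (adjusted p 0.61). Scaled to all peaks, these 2 peaks were 0.18 and 0.19 higher, and neither passed.

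Markers of bile duct cells moved with Maff and Mafk in advanced livers. The 9 measured cholangiocyte markers summed to 315.7 to 345.8 CPM in FPC controls, 331.7 to 364.0 in mild and 499.8 to 643.8 in advanced FPC livers, and to 322.0 to 369.4, 362.7 to 392.0 and 452.2 to 492.7 CPM on CDAHFD. In advanced FPC livers 9 of 9 rose and in advanced CDAHFD livers 8 of 9. The keratins that define these cells were low but not at 0: Krt19 averaged 1.18 CPM in FPC controls and 9.89 CPM in advanced FPC livers, and Krt7 0.997 and 7.97 CPM. In mild livers of both arms the marker sums overlapped those of controls, and there Maff and Mafk were above every control library. Hepatocyte markers fell in 6 of 8 cases in advanced livers of each diet. The part of these cells in the advanced change was not tested.

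Markers of other cell types moved as well, at the few of their genes with peaks. Of 4 macrophage markers 3 rose in advanced FPC livers and 1 in advanced CDAHFD livers, the latter being Csf1r, the receptor of a macrophage growth factor (0.71 ± 0.22 on FPC and 0.98 ± 0.21 on CDAHFD). Their sum was 28.37 to 40.58 CPM in FPC controls and 48.83 to 53.22 CPM in advanced FPC livers, and 43.14 to 50.28 and 52.43 to 60.62 CPM on CDAHFD, with no overlap in either diet. Of 2 stellate cell markers Col1a1, a collagen chain, rose by 1.43 ± 0.16 and 0.79 ± 0.15. The stellate sums were 26.66 to 43.66 CPM in FPC controls and 47.27 to 65.58 CPM in advanced FPC livers, and overlapped on CDAHFD (37.18 to 49.95 and 45.03 to 57.98 CPM). Lymphocyte markers mostly fell, and endothelial markers fell more often than they rose. Over all genes 32.4% rose and 29% fell in advanced FPC livers, and 30.2% and 28% in advanced CDAHFD livers. Of 7 endothelial markers 1 rose and 3 fell on FPC and 0 rose and 4 fell on CDAHFD, among them Tie1, an endothelial receptor, by 0.94 ± 0.16 and 1.61 ± 0.16. The endothelial sums went from 160.6 to 181 CPM in FPC controls to 141.1 to 152.4 CPM in advanced FPC livers, and from 184.1 to 227.8 to 138.6 to 170.7 CPM on CDAHFD. Of 4 lymphocyte markers 3 fell in each diet and 1 rose on CDAHFD, with Cd4 down by 1.17 ± 0.12 and 1.46 ± 0.11. The lymphocyte sums were 201.7 to 214.2 CPM in FPC controls and 90.95 to 103.5 CPM in advanced FPC livers, and 193.8 to 224.9 and 99.13 to 123.2 CPM on CDAHFD. The part of these cell types in the changes of Maff, Mafk and the other members was not tested.

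Mafg, the small Maf that commonly partners NRF2 in liver, fell in advanced FPC livers. Its gene sum was 215, 175, 211 and 179 CPM in FPC controls, 198, 219, 203 and 195 CPM in mild livers and 173, 147 and 158 CPM in advanced livers. Advanced FPC livers were lowest, without overlap: −0.30 ± 0.09 against controls (adjusted p 0.0069) and −0.35 ± 0.09 against mild livers (adjusted p 0.0036). On CDAHFD the ranges were 155.7 to 200.1 CPM in controls, 176 to 215 CPM in mild and 156 to 175 CPM in advanced livers. There the fall from mild to advanced, −0.25 ± 0.09, was at the threshold (adjusted p 0.049) and was lost in 5 of 7 fits without 1 library (−0.31 to −0.20 over all 7), and advanced against control, −0.07 ± 0.09, did not pass. In mild livers the changes were 0.06 ± 0.08 on FPC and 0.18 ± 0.08 on CDAHFD, neither of which passed. The FPC fall depends on the peaks summed and on the scaling. Over peaks within 1 kb of the start, scaled to the total of such peaks, the change was 0.05 (adjusted p 0.62). With cyclic loess scaling it was −0.17 and did not pass.

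The peaks of Mafg split by position. The start peak (chr11:120633577-120633777, 130 bp before the start) rose by 0.39 ± 0.10 in advanced FPC livers (adjusted p 0.0022) and by 0.10 ± 0.10 on CDAHFD, which did not pass. A peak 587 bp into intron 1 of 2 rose in both, by 0.56 ± 0.19 (adjusted p 0.014) and 1.01 ± 0.18 (adjusted p 3.8e-05). The largest fall was in exon 3 of 3, 4128 bp after the start (chr11:120629319-120629519). There FPC controls held 22.3, 14.9, 17.8 and 12.7 CPM and advanced FPC livers 9.10, 7.26 and 7.32 CPM, a fall of 1.11 ± 0.19 (adjusted p 2.8e-05). On CDAHFD the same peak fell by 0.61 ± 0.18 (adjusted p 0.0061). Among the 6 Mafg peaks more than 1 kb from the start, 4 fell and none rose in advanced FPC livers, and 3 fell and 1 rose in advanced CDAHFD livers.

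Nfe2l1, the gene of NRF1, rose in both diets and at both stages by small amounts. The gene sum was 157, 163, 148 and 146 CPM in FPC controls, 178, 178, 187 and 173 CPM in mild livers and 184, 188 and 195 CPM in advanced livers. On CDAHFD it was 140, 139, 132 and 139 CPM in controls, 185, 187, 185 and 185 CPM in mild livers and 193, 198 and 186 CPM in advanced livers. Diseased libraries lay above the controls of their diet throughout, and mild and advanced livers overlapped. The rise in advanced livers was 0.30 ± 0.05 on FPC (adjusted p 1.3e-05) and 0.49 ± 0.05 on CDAHFD (adjusted p 5.3e-09), and in mild livers 0.22 ± 0.05 (adjusted p 0.00063) and 0.43 ± 0.04 (adjusted p 3.6e-08). From mild to advanced the changes were 0.08 ± 0.05 and 0.05 ± 0.05 and did not pass.

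Nfe2l1 was also the member that differed between the arms. The mild change was smaller on FPC than on CDAHFD by 0.21 (−0.21 ± 0.06, adjusted p 0.048), while the difference in the advanced change, −0.19 ± 0.07, did not pass (adjusted p 0.1). Over all genes 2.49% were higher and 2.79% lower in the mild diet difference, and 1.92% and 2.95% in the advanced one, where 0 of 7 members were called. The controls differed as well: the FPC controls (20 weeks) were above the CDAHFD controls (7 weeks) by 0.16 ± 0.05 without overlap (adjusted p 0.036), and 1 of 7 members rose there beside 3.79% of all genes (2.26% fell). Both calls were near the threshold: leaving out 1 library ended the mild diet difference in 14 of 16 cases and the control difference in 4 of 8.

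A single Nfe2l1 peak passed the test of the diet difference. It lies in intron 2 of 4, 1116 bp after an annotated start (chr11:96822715-96822915). FPC controls held 30.0, 30.2, 27.2 and 26.3 CPM, mild FPC livers 30.3, 29.8, 31.0 and 27.5 CPM and advanced FPC livers 28.3, 33.6 and 33.1 CPM. CDAHFD controls held 23.4, 23.6, 17.4 and 19.7 CPM, mild CDAHFD livers 36.2, 36.3, 33.0 and 35.2 CPM and advanced CDAHFD livers 39.1, 35.7 and 36.4 CPM. The FPC groups overlapped, whereas on CDAHFD all diseased libraries lay above all controls. The advanced change was 0.16 ± 0.10 on FPC, which did not pass, and 0.83 ± 0.09 on CDAHFD (adjusted p 2.3e-08), a difference of −0.67 ± 0.13 (adjusted p 0.011). For the mild change the difference was −0.69 ± 0.13 (adjusted p 0.0031). The controls of this peak differed too, by 0.44 ± 0.10 in favour of the FPC arm (adjusted p 0.0099). The other 4 Nfe2l1 peaks rose in advanced livers of both diets, by 0.37 to 0.56 and by 0.31 to 0.55. Among them the peak nearest to a start, at −54 bp (chr11:96829456-96829656), rose by 0.37 ± 0.12 and 0.50 ± 0.12, and the one with the largest mean rise, at −182 bp (chr11:96830050-96830250), by 0.44 ± 0.07 and 0.55 ± 0.06.

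**Figure D3:**
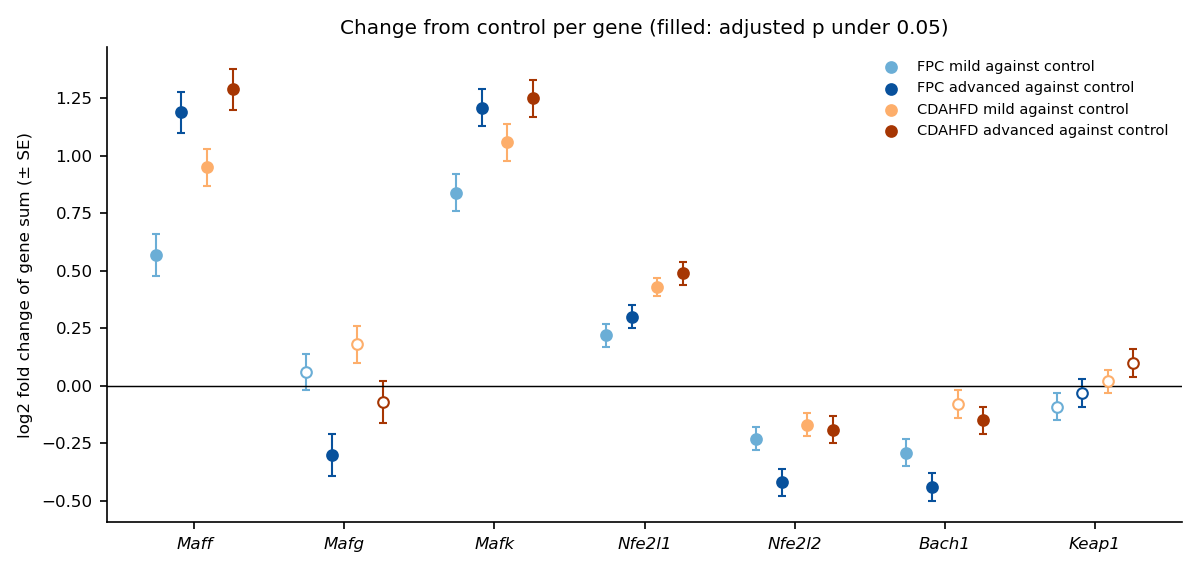
Log2 change of each gene sum from its diet's controls (vertical axis, ± SE) for mild and advanced livers of both diets, with filled points at an adjusted p under 0.05. Maff and Mafk stand near 1.2 in advanced livers, and the other 5 genes stay within 0.5 of 0.

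Nfe2l2, the gene of NRF2, lost a little open chromatin. The gene sum was 355, 396, 350.3 and 408 CPM in FPC controls, 315, 318, 323 and 329 CPM in mild livers and 299, 281 and 265 CPM in advanced livers. The 3 FPC groups stood apart, with advanced livers lowest: −0.42 ± 0.06 against controls (adjusted p 1.2e-06), with mild livers at −0.23 ± 0.05 (adjusted p 0.0017). On CDAHFD it was 350, 331, 373 and 341 CPM in controls, 309, 301, 307 and 322 CPM in mild livers and 297, 312 and 306 CPM in advanced livers. There both stages fell below the controls, by 0.19 ± 0.06 (adjusted p 0.005) and 0.17 ± 0.05 (adjusted p 0.0094), and the change between them was −0.02 ± 0.06 (adjusted p 0.84). From mild to advanced FPC livers the sum fell by 0.19 ± 0.06 (adjusted p 0.012). The CDAHFD fall depends on the peaks summed and the scaling: without the peaks within 1 kb the advanced change was 0.04 (adjusted p 0.56), and with cyclic loess it was −0.12 (adjusted p 0.055).

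The small sum hides peaks that moved strongly in both directions. The start peak of Nfe2l2 (chr2:75704543-75704743, centred 20 bp after the start), the largest peak of the gene, held 77.3 to 92.6 CPM in FPC controls and 75.4 to 92.4 CPM in advanced FPC livers. Its change was 0.01 ± 0.08 on FPC and 0.07 ± 0.08 on CDAHFD, and neither passed. A peak 630 bp before the start (−630 bp), named after its values were seen, fell from 53.8, 68.4, 48.2 and 64.8 CPM in FPC controls to 38.8, 32.1 and 28.3 CPM in advanced livers (−0.82 ± 0.12, adjusted p 3.2e-06). On CDAHFD it fell by 0.89 ± 0.12 (adjusted p 2.9e-07). The largest fall was far upstream, at −48348 bp between genes (chr2:75752911-75753111). FPC controls held 10.2, 9.55, 9.41 and 11.1 CPM there and advanced FPC livers 3.88, 0.855 and 1.91 CPM. The falls were 2.21 ± 0.27 on FPC (adjusted p 1.5e-07) and 1.89 ± 0.26 on CDAHFD (adjusted p 6.5e-07).

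Inside Nfe2l2, 2 peaks of the same intron rose in both diets. The larger rise was 15568 bp after the start in intron 1 of 4 (chr2:75688995-75689195), from 0.485, 1.33, 0.504 and 0.506 CPM in FPC controls to 3.88, 4.27 and 2.23 CPM in advanced FPC livers. On CDAHFD it went from 0.565, 1.05, 1.19 and 1.19 CPM in controls to 6.84, 7.51 and 4.55 CPM in advanced livers. The groups did not overlap, at low counts: 2.33 ± 0.42 (adjusted p 4.2e-05) and 2.63 ± 0.31 (adjusted p 5.8e-08). With cyclic loess scaling on log2 CPM the changes at this peak were 0.26 and 0.21 and did not pass (adjusted p 0.49 and 0.59). The other, 18999 bp after the start and named after its values were seen, rose by 1.07 ± 0.25 and 2.14 ± 0.23. Of the 16 Nfe2l2 peaks, 2 rose and 9 fell in advanced FPC livers, and 3 rose and 4 fell in advanced CDAHFD livers.

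Bach1, the gene of the repressor that competes for the same sites, also fell, more on FPC. The gene sum was 298, 287, 315 and 282 CPM in FPC controls, 267, 222, 246 and 233 CPM in mild livers and 210.3, 213 and 230.2 CPM in advanced livers. On CDAHFD it was 289, 279, 257 and 259.6 CPM in controls, 239.7, 248.7, 273 and 267 CPM in mild livers and 242, 243 and 249.7 CPM in advanced livers. Advanced livers lay below all controls in both arms, and mild livers did so on FPC. The FPC falls were 0.44 ± 0.06 in advanced (adjusted p 3e-06) and 0.29 ± 0.06 in mild livers (adjusted p 0.00058). On CDAHFD the advanced fall of 0.15 ± 0.06 was at the threshold (adjusted p 0.046), was lost without CDAHFD control replicate 1 or without CDAHFD advanced replicate 1 or 2 (−0.12, −0.16 and −0.17), and the mild change of −0.08 ± 0.06 did not pass. The difference between diets in the advanced change, −0.29 ± 0.09, narrowly missed in edgeR (adjusted p 0.058) and passed in DESeq2 (−0.30, adjusted p 0.029). Summed within 10 kb of the start, and scaled to the total of such peaks, the advanced FPC change was −0.06 (adjusted p 0.34). The largest falls of single peaks lay farther out.

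At Bach1 the start peak (chr16:87698794-87698994, 60 bp before the start) held 67.6 to 73.9 CPM in FPC controls and 75.1 to 76.6 CPM in advanced FPC livers. Its changes were 0.10 ± 0.06 on FPC and −0.06 ± 0.06 on CDAHFD, neither of which passed. The largest fall was 28043 bp upstream, between genes (chr16:87670811-87671011). FPC controls held 11.2, 8.48, 13.1 and 11.6 CPM, mild FPC livers 9.04, 8.62, 8.95 and 7.67 CPM and advanced FPC livers 2.87, 0.997 and 0.955 CPM. CDAHFD controls held 4.52, 5.68, 4.04 and 3.23 CPM and advanced CDAHFD livers 0.962, 2.003 and 0.569 CPM. Advanced livers stood apart from controls and from mild livers in both arms, and the arms also differed in their controls. The falls were 2.82 ± 0.30 on FPC (adjusted p 1.9e-08) and 1.94 ± 0.34 on CDAHFD (adjusted p 2.2e-05), and FPC controls were 1.35 ± 0.23 above CDAHFD controls (adjusted p 0.00095).

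A Bach1 peak in intron 1 of 4, 14245 bp after the start (chr16:87713099-87713299), gave the only other diet difference. It held 27.9, 13.8, 25.9 and 10.6 CPM in FPC controls and 23.7, 11.9, 12.1 and 13 CPM in mild FPC livers. On CDAHFD it held 8.05, 17.4, 7.60 and 10.53 CPM in controls and 21.5, 18.5, 26.9 and 16.96 CPM in mild livers. The libraries of a group were spread widely, and in neither arm did the mild and control groups stand apart. The mild change was −0.41 ± 0.27 on FPC, which did not pass, and 0.95 ± 0.26 on CDAHFD (adjusted p 0.0048), a difference of −1.36 ± 0.38 (adjusted p 0.042). In advanced CDAHFD livers (23.2, 21.7 and 19.6 CPM) it rose by 1.00 ± 0.28 (adjusted p 0.0034), and that diet difference, −1.32 ± 0.40, did not pass (adjusted p 0.087).

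Keap1 did not pass the test in any of the 9 comparisons of its gene sum. It ranged from 137 to 152 CPM in FPC controls, 125.8 to 147 in mild and 141.3 to 142.6 in advanced FPC livers, and from 126.1 to 149.3, 136.1 to 146.1 and 141 to 153.7 CPM on CDAHFD. All groups of an arm overlapped. The changes in advanced livers were −0.03 ± 0.06 on FPC and 0.10 ± 0.06 on CDAHFD, and the sign of the first differs between settings (0.05 with the scaling over all peaks and −0.03 with the sums' own). On CDAHFD the peaks near the start did rise: summed within 1 kb the change was 0.35 (adjusted p 0.00031). All 3 peaks within 1 kb rose in advanced CDAHFD livers, by 0.30 to 0.96, with the largest rise 236 bp into the transcript (0.96 ± 0.22, adjusted p 0.0007). The rise of 0.30 ± 0.13 in the peak nearest to the start, at +15 bp (chr9:21239217-21239417, adjusted p 0.049), was lost in 5 of 7 fits without 1 library. On FPC none of the 3 passed (0.19 to 0.44), and 1 of 11 Keap1 peaks fell, at +1860 bp in exon 1 of 5 (−0.68 ± 0.26, adjusted p 0.028), a call that 4 of 7 such fits lost.

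Counted peak by peak, 19 of the 65 rose and 20 fell in advanced FPC livers (27.6% and 28% of all peaks), and 26 rose and 13 fell in advanced CDAHFD livers (26.7% and 28.8% of all peaks). In mild livers 14 rose and 5 fell on FPC (15.1% and 13.6% of all peaks), and 24 rose and 6 fell on CDAHFD (20.7% and 20% of all peaks). From mild to advanced, 7 rose and 14 fell on FPC (14.7% and 14.6% of all peaks) and 7 rose and 5 fell on CDAHFD (9.28% and 7.26%). Diet differences were rare: 0 peaks were higher and 1 lower in the advanced difference (0.69% and 0.91% of all peaks), and 0 and 2 in the mild one (1.84% and 1.63%). Between the controls of both arms 3 peaks were higher and 0 lower (2.05% and 0.661% of all peaks).

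**Figure D4:**
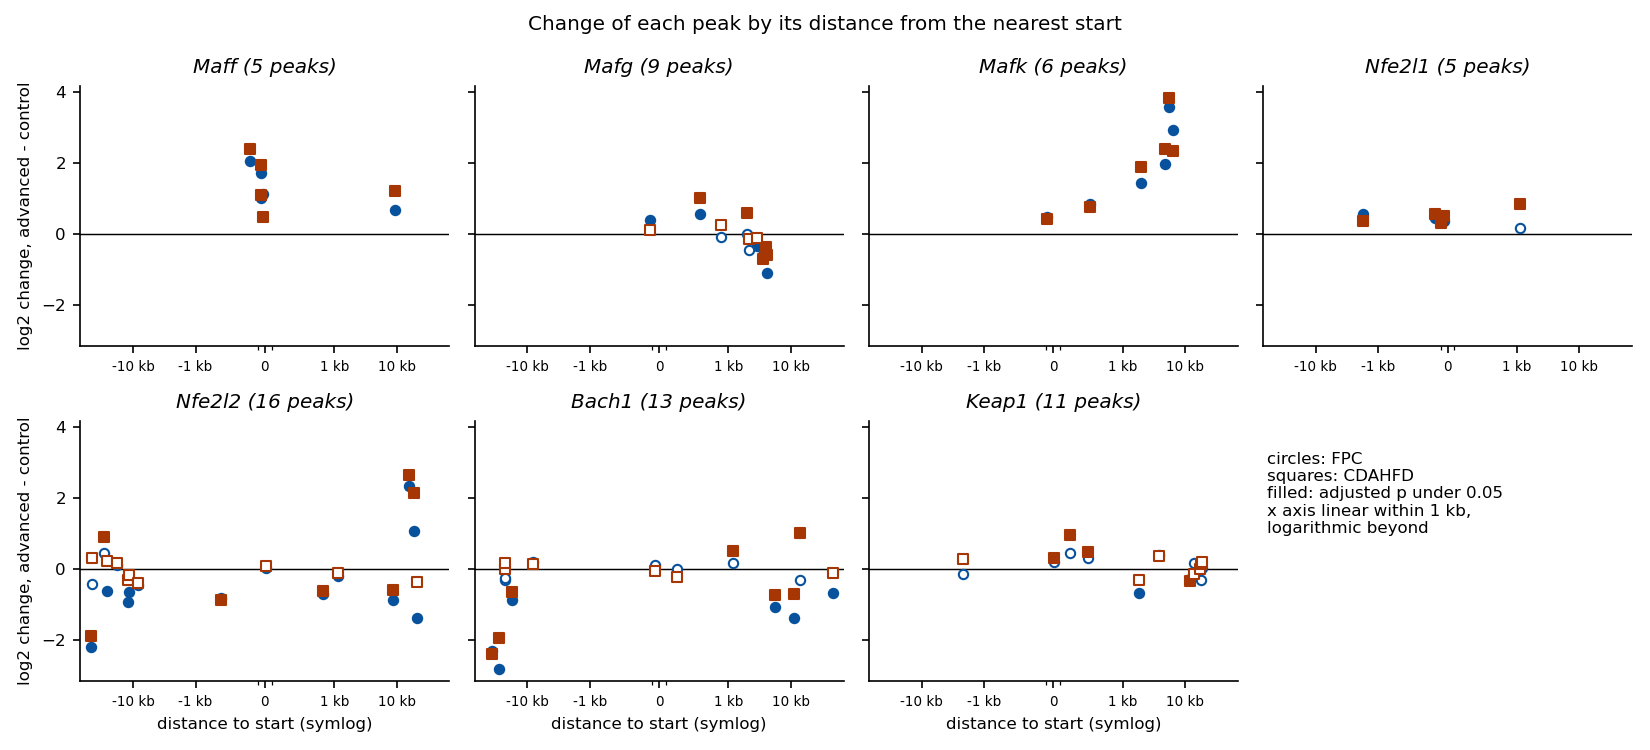
Log2 change of every peak in advanced against control livers (vertical axis) by its signed distance from the nearest transcription start (horizontal axis, linear within 1 kb and logarithmic beyond), with circles for FPC, squares for CDAHFD and filled symbols at an adjusted p under 0.05. The Mafk gains reach 3.56 and 3.83 inside the gene, the Nfe2l2 and Bach1 start peaks sit near 0, and the falls at these 2 genes lie 630 bp or more from the start.

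The peaks were then divided by their distance from the start. Of 20 member peaks within 1 kb of a start, 11 rose and 2 fell in advanced FPC livers and 13 rose and 2 fell in advanced CDAHFD livers. Among all 20072 peaks that near to a start, 38.9% rose and 12.1% fell on FPC, and 31.5% and 13.7% on CDAHFD. Of 45 member peaks between 1 and 50 kb, 8 rose and 18 fell on FPC and 13 rose and 11 fell on CDAHFD. Among all 36715 such peaks, 23.9% rose and 32.3% fell on FPC, and 25.7% and 32.7% on CDAHFD. On FPC the members' shift from rises near starts to falls farther away is thus also seen over all peaks. On CDAHFD the distant member peaks rose about as often as they fell, with a median of 0.00 beside −0.11 over all such peaks.

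The arms have separate controls, so their advanced changes can be set side by side. Of the 65 peaks 18 rose in both diets, 12 fell in both and 0 moved in opposite directions. Another 9 passed on FPC only and 9 on CDAHFD only, which does not show that these differ between diets, and 17 passed in neither. Over all 68827 peaks 20.7% rose in both diets, 21.5% fell in both and 0.243% moved in opposite directions, beside 27.7%, 18.5% and 0% of the member peaks. The members' agreement between diets was thus near that of all peaks. All 5 Maff and all 6 Mafk peaks were among those that rose in both, and the 12 that fell in both were 5 of Bach1, 4 of Nfe2l2 and 3 of Mafg.

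**Figure D5:**
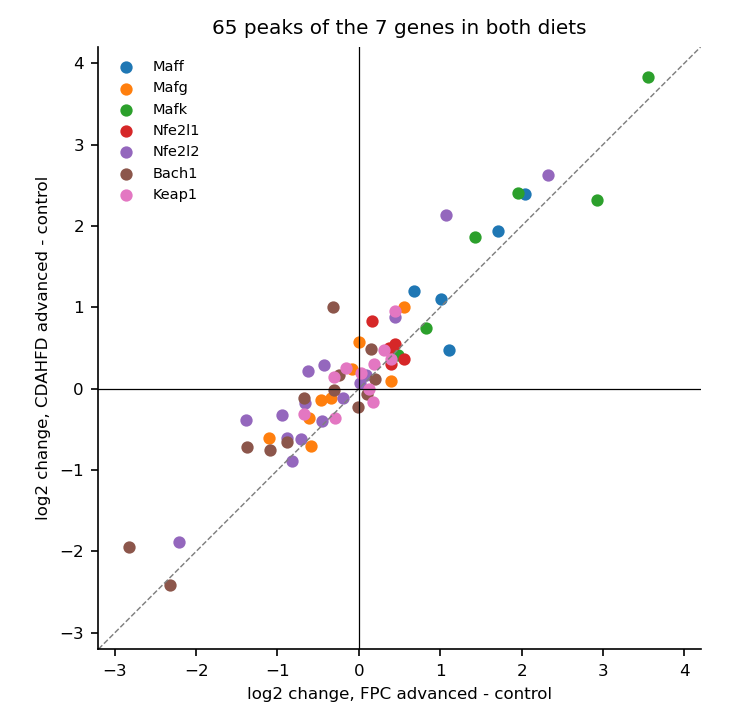
Log2 change of each of the 65 peaks in advanced against control livers on FPC (horizontal axis) and on CDAHFD (vertical axis), coloured by gene, with a dashed line of equal change. Maff and Mafk lie in the upper right, the strongest falls of Bach1 and Nfe2l2 in the lower left.

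The other genes of the pathway were taken from fixed lists. Of 6 further Maf and CNC family genes with peaks, 1 rose and 3 fell in advanced FPC livers and 0 rose and 2 fell in advanced CDAHFD livers, with a median of −0.24 and −0.22 beside 0.03 and 0.01 over all genes. Here and below, the counts stand beside 32.4% of all genes that rose and 29% that fell on FPC, and 30.2% and 28% on CDAHFD. Maf (c-Maf) fell in both diets, by 0.24 ± 0.06 and 0.22 ± 0.06, and Mafa rose on FPC by 0.67 ± 0.08 and was 0.14 ± 0.07 on CDAHFD, which did not pass. Of 21 regulators of KEAP1, NRF2 and NRF1, 9 rose and 4 fell on FPC (42.9% and 19%) and 9 rose and 3 fell on CDAHFD (42.9% and 14.3%), with medians of 0.11 and 0.12. With 21 genes, these shares were not far from those of all genes. Vcp, the ATPase that pulls NRF1 out of the endoplasmic reticulum, rose by 0.24 ± 0.06 and 0.51 ± 0.06, and Rbx1, the ring subunit of the KEAP1 ligase, by 0.37 ± 0.06 and 0.25 ± 0.06. Ep300, an acetyltransferase that acts on NRF2, rose by 0.57 ± 0.07 and 0.27 ± 0.07. Fbxo22, which targets BACH1 for degradation, fell on FPC by 0.46 ± 0.07 and was −0.11 ± 0.07 on CDAHFD, which did not pass.

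In advanced against control livers, targets of NRF2 and BACH1 were called about as often as other genes. Of 34 with peaks 9 rose and 9 fell on FPC (26.5% each), and 11 rose and 6 fell on CDAHFD (32.4% and 17.6%), with medians of −0.03 and 0.11. Nqo1, a quinone reductase and classical NRF2 target, rose by 0.94 ± 0.11 and 1.10 ± 0.10, Srxn1 (sulfiredoxin) by 0.68 ± 0.10 and 0.91 ± 0.09, and Pgd, of the pentose phosphate pathway, by 0.37 ± 0.08 and 0.67 ± 0.08. Slc40a1, the iron exporter ferroportin, fell by 0.63 ± 0.07 and 0.23 ± 0.06. Of 32 proteasome genes, which NRF1 is known to activate, 13 rose and 7 fell on FPC (40.6% and 21.9%) and 10 rose and 7 fell on CDAHFD (31.2% and 21.9%), also near the shares of all genes, with medians of 0.09 and 0.01. Among them Psmd3 rose by 0.76 ± 0.08 and 0.81 ± 0.08 and Psmd8 by 0.93 ± 0.10 and 0.64 ± 0.09. Of 11 AP-1 genes, whose proteins bind related sites, 9 rose and 0 fell in both diets (81.8% rose), with a median of 0.29 and 0.37 beside 0.03 and 0.01 over all genes. Among them Jdp2 rose by 1.39 ± 0.19 and 1.02 ± 0.18, Batf by 1.19 ± 0.20 and 1.09 ± 0.18, Fosb by 0.46 ± 0.07 and 0.54 ± 0.07, and Junb by 0.26 ± 0.07 and 0.42 ± 0.07. In some other comparisons the targets of NRF2 and BACH1 stood farther from all genes. In mild CDAHFD livers 14 rose and 3 fell (41.2% and 8.82%, beside 23.9% and 21% of all genes). In the mild diet difference 1 was higher and 8 lower (2.94% and 23.5%, beside 2.49% and 2.79%). FPC controls were above CDAHFD controls at 9 and below at 0 (26.5% and 0%, beside 3.79% and 2.26%). In the advanced diet difference 0 were higher and 4 lower (0% and 11.8%, beside 1.92% and 2.95%). The CDAHFD controls enter each of these comparisons, so the departures are not separate. The summed target level was 4205 to 4424 CPM in those controls and 4640 to 4725 CPM in FPC controls. Mild FPC livers were compared with FPC controls, and there 8 rose and 10 fell (23.5% and 29.4%, beside 21.3% and 18.9% of all genes).

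Over the 22 libraries, log2 CPM of Maff correlated with that of Mafk at a Pearson r of 0.962, and with the group means removed the r was 0.561. Not all pairs of members kept their sign in this way. Mafk with Nfe2l1 went from 0.922 to −0.205 and Maff with Nfe2l2 from −0.800 to 0.345, whereas Maff with Keap1 went from 0.208 to 0.318. Of 7843 genes with a mean level at or above the median, those most like Maff were Smndc1, Pef1 and Sema3f (r = 0.978, 0.977 and 0.976) and those most like Mafk were Flot1, Prune1 and Osbpl3 (0.976, 0.976 and 0.973). For Nfe2l1 they were Anxa2, Myo1c and Ccdc61 (0.968, 0.963 and 0.960), for Nfe2l2 Mir6400, Idh1 and Cpsf6 (0.925, 0.921 and 0.919), and for Bach1 Rbm47, Plcxd2 and Timm10 (0.919, 0.907 and 0.903). The closest genes to Mafg were Sfxn5, Sema4g and Cdh15 (0.821, 0.804 and 0.796), and those to Keap1 Nab2, Wnt10a and 1700012D01Rik (0.764, 0.686 and 0.655). All these values come from libraries that share their groups and scaling, so they describe a common course over the 6 groups.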

How the data were processed

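ATAC-seq of captured liver nuclei was read from the table of un-normalized values for 68827 peaks of 200 bp in 22 libraries (mm10). Per the submitters' processing notes the authors used BWA 0.7.5a-r405, SAMtools, HOMER and DESeq2, with peak calling settings not stated there. The deposited values are treated as estimated counts: they come in steps of 0.5, 47.8% are not whole for a reason no label states, and they were rounded. The authors' normalized table was not used.

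Peaks within 50 kb of the start of the gene the authors named were summed to 15686 gene sums. Tests used edgeR 4.0.16 (quasi-likelihood, TMM factors 0.983 to 1.02 for genes and 0.984 to 1.02 for peaks, R 4.3.3) on all 6 groups together, with Benjamini-Hochberg adjustment over all genes or all peaks and calls at an adjusted p under 0.05. The filter on low counts removed nothing. CPM of gene sums is scaled to the total in gene windows and CPM of peaks to the total over all peaks. SE is the absolute log2 change divided by the square root of F. Library totals of 3.79 to 9.33 (in units of 1000000) gave 102 to 2649 counts per member gene and library. Fits were tested on simulated data.

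Peaks were named by rule: nearest to the start, largest called rise and fall, and any with a called diet difference. Other named peaks are marked as chosen after their values were seen. Members and lists were chosen with earlier results of these data known. Alternatives included DESeq2 1.42.0, limma 3.58.1 (voom), cyclic loess and other windows. Sums over other windows were scaled to the totals and TMM factors within those windows. Labels give each library a number of its own and do not say how mice were housed or processed, so p-values measure the spread between these libraries.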

Additional observations from a re-analysis of the deposited data

Results flagged for a closer look

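Among 104 groups of 4 libraries tested for a library far from the rest, 8 were flagged; chance flags about 1 in 20. For the Nfe2l1 gene sum CDAHFD control replicate 3 was low, at 131.7 CPM, with the other 3 between 138.6 and 139.6. At the Maff peak 218 bp before the start CDAHFD control replicate 4 was low, at 0.3395 CPM. At the Mafg peak 4128 bp after the start CDAHFD control replicate 3 was high, at 17.11 CPM. At the Nfe2l2 peak 15568 bp after the start FPC control replicate 2 (1.326 CPM) and CDAHFD mild replicate 3 (4.37 CPM) were high. At Bach1, FPC mild replicate 1 was high 14245 bp after the start (23.7 CPM) and CDAHFD mild replicate 1 was low 28043 bp before it (2.589 CPM). At the Keap1 peak 236 bp after the start CDAHFD mild replicate 2 was high, at 5.877 CPM.

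In 4 cases the change from control differed between the diets by the edgeR test of the difference (FPC minus CDAHFD, log2, adjusted over all genes or peaks). The Nfe2l1 gene sum differed by −0.21 in mild livers. The Nfe2l1 peak 1116 bp after the start differed by −0.67 in advanced and −0.69 in mild livers, with all 7 diseased CDAHFD libraries above all 4 controls and the FPC groups overlapping. The Bach1 peak 14245 bp after the start differed by −1.36 in mild livers, and the mild libraries overlapped the controls in both arms.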

How the results depend on the processing

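No paired analysis was possible because the labels give the groups no shared replicate numbers. Of the single genes and peaks under all alternatives, 1761 values kept direction and call, 86 lost a call, 24 gained one and 54 changed sign. Thinning to the smallest total and the scalings over all peaks, by upper quartile and by totals alone were chosen after seeing the data. The cause of these changes was not tested, apart from the windows, which change the peaks summed. Depth limits the weakest peaks, with values near 1 CPM.

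Counts of called members moved as follows. With median-ratio size factors, gene sums lower were 1 (not 0) in the advanced diet difference, and peaks lower were 3 (not 5) in CDAHFD advanced vs mild. With cyclic loess, gene sums lower were 1 (not 2) in FPC advanced vs mild, 0 (not 2) in CDAHFD advanced vs control, 0 (not 1) in CDAHFD advanced vs mild, and gene sums higher were 0 (not 1) in the controls, and peaks higher were 4 (not 7) in CDAHFD advanced vs mild. With DESeq2, gene sums lower were 1 (not 0) in the advanced diet difference, and peaks lower were 3 (not 6) in CDAHFD mild vs control, 1 (not 2) in the mild diet difference. With the compared groups alone, gene sums higher were 2 (not 1) in CDAHFD advanced vs mild, 0 (not 1) in the controls, and gene sums lower were 0 (not 1) in the mild diet difference, and peaks lower were 1 (not 2) in the mild diet difference, and peaks higher were 1 (not 3) in the controls. With peaks within 10 kb, gene sums lower were 1 (not 2) in FPC mild vs control, 1 (not 2) in CDAHFD advanced vs control, 0 (not 1) in the mild diet difference. With peaks within 1 kb only, gene sums lower were 1 (not 3) in FPC advanced vs control, 1 (not 2) in FPC mild vs control, 1 (not 2) in FPC advanced vs mild, 0 (not 1) in CDAHFD advanced vs mild, 0 (not 1) in the mild diet difference, and gene sums higher were 1 (not 2) in FPC advanced vs mild, 0 (not 1) in the controls. With peaks beyond 1 kb only, gene sums higher were 1 (not 3) in FPC mild vs control, 1 (not 2) in FPC advanced vs mild, 0 (not 1) in the controls, and gene sums lower were 1 (not 2) in FPC advanced vs mild, 0 (not 2) in CDAHFD advanced vs control, 0 (not 1) in CDAHFD mild vs control, 2 (not 0) in the advanced diet difference. With upper-quartile factors, gene sums lower were 0 (not 1) in the mild diet difference, and gene sums higher were 0 (not 1) in the controls. With library totals alone, gene sums lower were 1 (not 2) in CDAHFD advanced vs control, 0 (not 1) in the mild diet difference, and gene sums higher were 0 (not 1) in the controls. With factors over all peaks, gene sums lower were 1 (not 2) in FPC advanced vs mild, 1 (not 2) in CDAHFD advanced vs control, 0 (not 1) in CDAHFD advanced vs mild, 0 (not 1) in the mild diet difference, and gene sums higher were 2 (not 1) in CDAHFD advanced vs mild. With thinned libraries, gene sums lower were 0 (not 1) in CDAHFD mild vs control, 0 (not 1) in CDAHFD advanced vs mild, 0 (not 1) in the mild diet difference, and peaks lower were 9 (not 14) in FPC advanced vs mild, 3 (not 5) in CDAHFD advanced vs mild, 0 (not 1) in the advanced diet difference, 1 (not 2) in the mild diet difference, and peaks higher were 4 (not 7) in CDAHFD advanced vs mild.

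Signs of single values changed as follows, none of them called under the alternative. With median-ratio size factors, Maff was 0.01 in the controls. With cyclic loess, Keap1 was 0.06 in FPC advanced vs control, Nfe2l2 was 0.02 in CDAHFD advanced vs mild, Maff was 0.02 in the controls, Nfe2l2 peak at +20 was −0.09 in FPC advanced vs control and −0.06 in CDAHFD advanced vs control. With DESeq2, Maff was 0.01 in the controls. With limma-voom, Maff was 0.00 in the controls. With peaks within 10 kb, Keap1 was 0.03 in FPC advanced vs control, Bach1 was 0.03 in FPC advanced vs mild and 0.01 in CDAHFD advanced vs mild and 0.03 in the advanced diet difference and 0.02 in the mild diet difference and −0.08 in the controls, Maff was 0.00 in the controls. With peaks within 1 kb only, Mafg was 0.05 in FPC advanced vs control and 0.16 in CDAHFD advanced vs control, Keap1 was 0.10 in FPC advanced vs control, Mafk was −0.03 in CDAHFD advanced vs mild, Bach1 was 0.10 in the advanced diet difference and 0.03 in the mild diet difference and −0.12 in the controls, Nfe2l2 was 0.03 in the mild diet difference. With peaks beyond 1 kb only, Keap1 was 0.04 in FPC advanced vs control and −0.02 in CDAHFD mild vs control, Mafg was −0.01 in FPC mild vs control, Nfe2l2 was 0.04 in CDAHFD advanced vs control and 0.06 in CDAHFD advanced vs mild, Maff was 0.72 in the controls. With upper-quartile factors, Keap1 was 0.00 in FPC advanced vs control. With library totals alone, Keap1 was 0.01 in FPC advanced vs control. With factors over all peaks, Keap1 was 0.05 in FPC advanced vs control, Nfe2l2 was 0.01 in CDAHFD advanced vs mild, Maff was 0.00 in the controls. With thinned libraries, Keap1 was −0.04 in CDAHFD mild vs control, Mafk was −0.01 in the controls, Nfe2l2 peak at +20 was −0.00 in FPC advanced vs control.

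Without 1 library at a time, the ranges were: Keap1 in CDAHFD mild vs control −0.02 to 0.05, Maff in the controls −0.05 to 0.07, Mafg in CDAHFD advanced vs control −0.15 to 0.00, Mafk in the controls −0.01 to 0.13. Mafk in the advanced diet difference −0.12 to 0.03, Nfe2l2 peak at +20 in FPC advanced vs control −0.05 to 0.09, gene sums higher in the controls 0 to 1, gene sums lower in CDAHFD advanced vs control 1 to 2. Gene sums lower in CDAHFD advanced vs mild 0 to 1, gene sums lower in the advanced diet difference 0 to 1, gene sums lower in the mild diet difference 0 to 1, peaks higher in CDAHFD advanced vs mild 2 to 8. Peaks higher in the controls 1 to 3, peaks lower in CDAHFD advanced vs mild 2 to 5, peaks lower in CDAHFD mild vs control 3 to 7, peaks lower in FPC advanced vs mild 7 to 14. Peaks lower in FPC mild vs control 3 to 6, peaks lower in the advanced diet difference 1 to 2, peaks lower in the mild diet difference 1 to 2. Counts over all genes and peaks ranged as follows, with the count from all libraries in brackets. Gene sums higher were, in CDAHFD advanced vs mild 971 to 1434 (1511), the controls 378 to 554 (594), the advanced diet difference 178 to 330 (301), the mild diet difference 220 to 444 (390). Gene sums lower were, in CDAHFD advanced vs mild 640 to 1268 (1218), FPC advanced vs mild 1509 to 2406 (2497), the controls 198 to 383 (354), the advanced diet difference 259 to 492 (463), the mild diet difference 242 to 502 (437). Peaks higher were, in CDAHFD advanced vs mild 4238 to 6419 (6389), FPC advanced vs mild 6683 to 9973 (10135), the controls 711 to 1217 (1411), the advanced diet difference 214 to 603 (475), the mild diet difference 674 to 1659 (1269). Peaks lower were, in CDAHFD advanced vs mild 2617 to 4814 (4996), FPC advanced vs mild 5062 to 9419 (10020), the controls 227 to 589 (455), the advanced diet difference 338 to 748 (626), the mild diet difference 568 to 1555 (1122).

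Counts over all genes and peaks moved by more than 1.5 times as follows. With cyclic loess, peaks higher were 2534 (not 6389) in CDAHFD advanced vs mild, and peaks lower were 828 (not 455) in the controls. With limma-voom, peaks lower were 275 (not 455) in the controls. With the compared groups alone, gene sums higher were 167 (not 301) in the advanced diet difference, 269 (not 594) in the controls, and gene sums lower were 258 (not 463) in the advanced diet difference, 100 (not 354) in the controls, and peaks higher were 225 (not 475) in the advanced diet difference, 663 (not 1411) in the controls, and peaks lower were 293 (not 626) in the advanced diet difference, 101 (not 455) in the controls. With peaks within 10 kb, gene sums higher were 253 (not 390) in the mild diet difference. With peaks within 1 kb only, gene sums higher were 3058 (not 5086) in FPC advanced vs control, 1839 (not 3344) in FPC mild vs control, 1122 (not 2444) in FPC advanced vs mild, 3115 (not 4741) in CDAHFD advanced vs control, 2476 (not 3754) in CDAHFD mild vs control, 557 (not 1511) in CDAHFD advanced vs mild, 144 (not 390) in the mild diet difference, and gene sums lower were 3025 (not 4554) in FPC advanced vs control, 1075 (not 2497) in FPC advanced vs mild, 407 (not 1218) in CDAHFD advanced vs mild. With peaks beyond 1 kb only, gene sums higher were 2172 (not 3344) in FPC mild vs control, 226 (not 594) in the controls, and gene sums lower were 166 (not 463) in the advanced diet difference, 135 (not 354) in the controls. With upper-quartile factors, gene sums higher were 455 (not 301) in the advanced diet difference. With factors over all peaks, gene sums lower were 294 (not 463) in the advanced diet difference. With thinned libraries, gene sums higher were 1007 (not 1511) in CDAHFD advanced vs mild, 142 (not 301) in the advanced diet difference, 254 (not 390) in the mild diet difference, and gene sums lower were 234 (not 463) in the advanced diet difference, 180 (not 354) in the controls, and peaks lower were 2633 (not 4996) in CDAHFD advanced vs mild, 249 (not 626) in the advanced diet difference, 565 (not 1122) in the mild diet difference, 272 (not 455) in the controls, and peaks higher were 185 (not 475) in the advanced diet difference, 724 (not 1269) in the mild diet difference. The share of higher among called features also moved by over 10 points elsewhere: for FPC advanced vs mild from 2444 higher and 2497 lower genes to 3170 and 1953 with factors over all peaks, for the advanced diet difference from 301 and 463 to 382 and 294 with these factors, 413 and 322 with totals alone, 455 and 326 with upper-quartile factors, 229 and 560 with peaks within 1 kb only and 211 and 166 with peaks beyond 1 kb only, for the mild diet difference from 390 and 437 to 480 and 355 with upper-quartile factors and 144 and 331 with peaks within 1 kb only, and for CDAHFD advanced vs mild peaks from 6389 and 4996 to 2534 and 4422 with cyclic loess.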
